A study of Mus musculus with 12 samples.

Results

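A set of 6 genes of leukocyte adhesion were examined in mouse abdominal aorta: Icam1, Icam2, Vcam1, Sele, Selp and Selplg. They were chosen by gene symbol, as 6 of the 55092 features in the RNA-Seq table, and all 6 passed the filter on low values (an FPKM of 1 or more in 3 or more libraries), as did 14676 features. The study asks what the loss of CCN2, a matricellular protein also called CTGF, from smooth muscle cells (SMCs) does to the aorta during angiotensin II (Ang II) infusion, a hypertensive stimulus used to induce abdominal aortic aneurysm. Male mice carrying floxed Ccn2 were given 5 doses of tamoxifen from 8 weeks of age, controls included, and were used after a washout of 2 weeks. Osmotic pumps then delivered saline or Ang II at 500 ng/kg/min, and aortas were taken at day 7. CCN2fl/fl mice, which are floxed but carry no Cre, received saline (CFS) or Ang II (CFA). CCN2SMCΔ mice, in which Cre-ERT2 is driven by the smooth muscle promoter Myh11, received saline (CSS) or Ang II (CSA). Each group had 3 mice with 1 library each, and a library is named here by its group and mouse number. The Cre line limits the deletion to cells that express Myh11, and a difference between genotypes also includes the presence of the Cre transgene.

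Leukocytes leave the blood in steps. Selectins on activated endothelium and on platelets first capture passing cells through carbohydrate ligands, and the cells roll. Endothelial members of the immunoglobulin superfamily, the ICAMs and VCAM-1, then bind activated leukocyte integrins and hold the cells firmly before they cross the wall. Sele encodes E-selectin, made by endothelium after cytokine exposure, and Selp encodes P-selectin, stored in endothelial granules and in platelets. Selplg encodes PSGL-1, the mucin-like ligand for selectins that leukocytes carry. Icam1 is inducible in endothelium and many other cells and Vcam1 in endothelium and SMCs, whereas Icam2 is held by resting endothelium.

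Coordinates refer to GRCm38 and were read from GENCODE M21, where all 6 genes are protein-coding. Sele (ENSMUSG00000026582, chr1:164048234-164057677) and Selp (ENSMUSG00000026580, chr1:164115264-164150026) lie on the same chromosome and both on the plus strand. Icam1 (ENSMUSG00000037405, chr9:21015985-21028817) is on the plus strand. Icam2 (ENSMUSG00000001029, chr11:106377656-106388075), Vcam1 (ENSMUSG00000027962, chr3:116109949-116129688) and Selplg (ENSMUSG00000048163, chr5:113818536-113832644) are on the minus strand. Of the exonic bases, 14.1% in Selp, 11.7% in Icam1 and 0.688% in Vcam1 are shared with annotated antisense genes, and no base in Icam2, Sele or Selplg is shared with another gene. The sources used here do not say whether counting used strand, and without strand the reads of such a gene and its antisense partner cannot be told apart.

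Promoter sequence was held by the RefSeq table (build GRCm38.p6) for 3 of the 6 genes, Icam1, Sele and Selp. The 250 bases before the RefSeq start are printed for these genes, at chr9:21015690-21015939 for Icam1, chr1:164047984-164048233 for Sele and chr1:164115014-164115263 for Selp, all on the plus strand. Capitals mark matches to GGANNNTCC, a palindromic pattern found within many known NF-κB binding sites, and to TATAAA, the TATA box.
Icam1: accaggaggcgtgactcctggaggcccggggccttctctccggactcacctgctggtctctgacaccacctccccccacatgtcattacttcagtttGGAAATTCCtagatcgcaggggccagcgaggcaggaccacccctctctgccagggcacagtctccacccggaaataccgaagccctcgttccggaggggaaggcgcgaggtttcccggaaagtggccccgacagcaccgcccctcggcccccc
Sele: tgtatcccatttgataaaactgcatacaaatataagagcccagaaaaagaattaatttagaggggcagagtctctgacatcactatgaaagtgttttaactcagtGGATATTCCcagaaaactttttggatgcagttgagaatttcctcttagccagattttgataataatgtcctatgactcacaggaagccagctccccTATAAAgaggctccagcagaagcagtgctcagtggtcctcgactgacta
Selp: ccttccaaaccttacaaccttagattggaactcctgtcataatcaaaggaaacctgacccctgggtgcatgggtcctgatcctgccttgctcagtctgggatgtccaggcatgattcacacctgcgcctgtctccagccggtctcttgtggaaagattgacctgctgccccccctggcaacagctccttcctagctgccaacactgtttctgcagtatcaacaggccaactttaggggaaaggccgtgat
Icam1 held the GGANNNTCC match GGAAATTCC from 153 to 145 bases before the start, and Sele held GGATATTCC from 145 to 137 bases before it. The Sele promoter also held TATAAA from 49 to 44 bases before the start, and the Selp window held neither pattern. Both patterns were searched on both strands and do not overlap, and GGANNNTCC is its own reverse complement. Among 32851 promoters of the same length, 7.27% held GGANNNTCC and 12.4% held TATAAA. The patterns were chosen after the sequences were seen, a match is a description of letters and not of binding, and the annotated gene start of Icam1 in GENCODE differs from that in RefSeq.

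The libraries held 14555508 (CSA03) to 23102755 (CFA71) fragments, recovered from the deposited FPKM. Ccn2, the targeted gene, had 709.5, 1108 and 480.1 FPKM in CFS, 436, 639.9 and 587 in CSS, 1013, 1105 and 564 in CFA, and 255, 331 and 399 in CSA. The CSA mice were below every CFA mouse (log2 fold change -1.41, limma with Benjamini-Hochberg adjusted p = 0.00622), a change under the fold limit of 1.5 and so not called, while CSS and CFS overlapped (-0.40, adjusted p = 1). The difference between these genotype effects was not called either (-1.01, adjusted p = 0.148). The cells that the remaining Ccn2 transcripts come from were not separated, and 23.2% of the gene's exonic bases are shared with an antisense gene. The tissue label was checked on markers: the summed FPKM of 8 smooth muscle markers was 5466 to 10216 outside CSA and 793 to 938 in CSA, where 8 of 8 fell against CFA. A pair of libraries stood apart in ways that touch the members. CFS69 had the lowest summed level of 16 endothelial markers (234 FPKM, against 679 and 683 in its group), and CSA03 lay 1.199 and 1.213 from the other CSA libraries on the log2 scale, which lay 0.505 from each other. In bulk RNA, fewer cells of a type and less RNA per cell cannot be told apart.

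**Figure D1:**
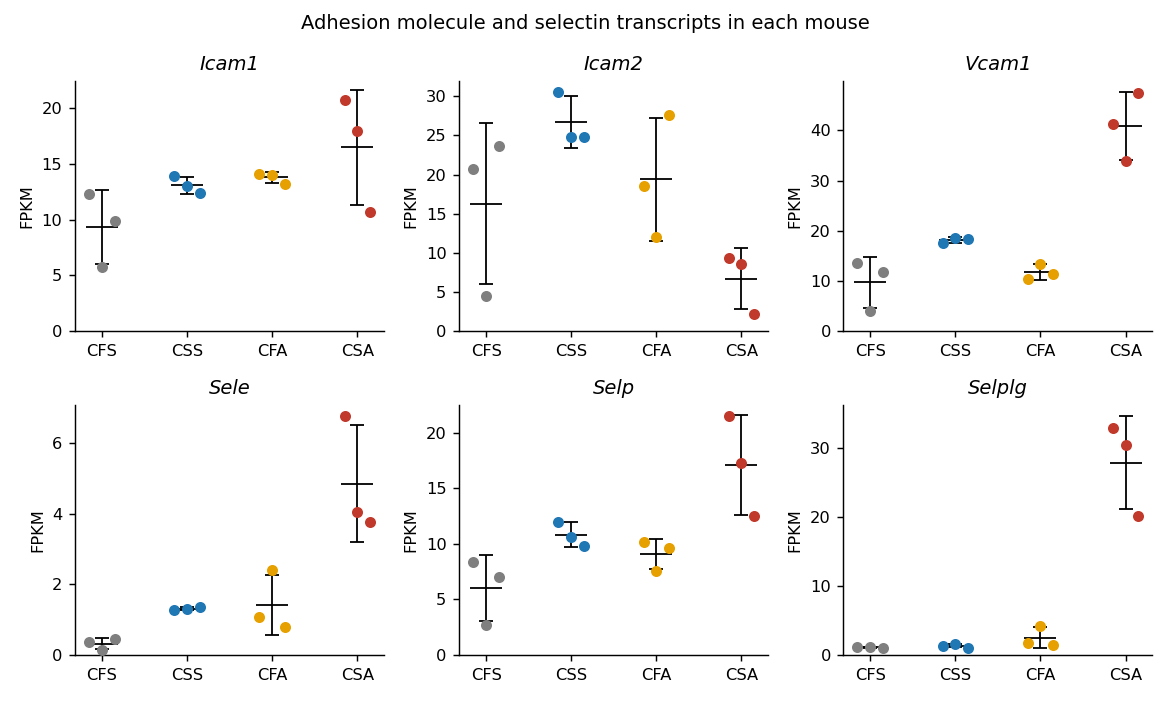
FPKM of each member gene in every mouse (points), with the mean and SD (bars, n = 3 mice per group) in CFS, CSS, CFA and CSA. The 3 CSA points lie above all CFA points for Vcam1, Sele, Selp and Selplg and below them for Icam2, while for Icam1 CSA03 lies below the 3 CFA points.

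Under Ang II, aortas that had lost CCN2 in SMCs held more Vcam1, Sele and Selplg transcript than floxed aortas. Vcam1 was 3.49-fold, Sele 3.43-fold and Selplg 11.2-fold higher in mean FPKM, and these 3 of the 6 members were called higher in CSA than in CFA. A call required a log2 fold change beyond 1.5 in either direction with an adjusted p under 0.05, and 8.95% of all tested genes were called higher by the same rule. No member was called lower, against 8.27% of all tested genes, although Icam2 lay lower in every CSA mouse. The members' median log2 fold change was 1.33, against -0.04 over all genes tested. Of the tested genes 1206 passed the filter only through the CSA libraries, and 0 of the 6 members did.

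Vcam1 encodes the endothelial and SMC ligand of the integrin α4β1. It had 10.3, 13.5 and 11.3 FPKM in CFA and 41.3, 33.8 and 47.4 FPKM in CSA. The groups did not overlap, and the lowest CSA mouse lay well above the highest CFA mouse. The log2 fold change was 1.79 (SE 0.36) with a limma adjusted p of 0.00236. It stayed between 1.68 and 1.92 when each mouse was left out in turn and was called each time. Vcam1 was the member with the highest mean in CSA (40.9 ± 6.80 FPKM, SD, n = 3), where its range did not overlap that of the next gene.

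Sele was the least abundant member in all groups by mean. CFA mice had 1.07, 2.39 and 0.778 FPKM and CSA mice 6.77, 4.05 and 3.76 FPKM, and all the CSA values were above all the CFA values. The counts behind these levels were 68, 148 and 48 fragments in CFA and 400, 250 and 168 in CSA. The log2 fold change was 1.81 (SE 0.41, limma adjusted p = 0.00504). With a pseudocount of 1, which shrinks fold changes of low genes, it was 1.3002, and without CFA74 it was 1.49, both under the fold limit and both with an adjusted p under 0.05.

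Selplg, the leukocyte-borne ligand, had 1.75, 4.21 and 1.48 FPKM in CFA and 32.9, 30.5 and 20.2 FPKM in CSA. Its lowest CSA value was several times its highest CFA value, which came from CFA72. The log2 fold change was 3.56 (SE 0.34) with a limma adjusted p of 1.53e-05. The leukocyte markers moved with it. All 10 pan-leukocyte markers (Ptprc, Cd52, Cd53 and others) were called higher in CSA, with a summed level of 63.3 to 143 FPKM in CFA, highest in CFA72, and 733 to 795 in CSA. Of 10 macrophage markers 8 were called higher, 1 of which (Msr1) passed the filter only through CSA. Passing this way favours a higher value in CSA. It also applied to all 8 T cell, all 3 tested B cell and 5 of 9 tested neutrophil markers. Their calls are therefore not counted here, and 1 of the tested B cell markers was not called. The summed levels in CFA and CSA were 310 to 618 and 1989 to 2113 FPKM for macrophages, 14.0 to 33.1 and 541 to 586 for neutrophils, 0.811 to 2.997 and 25.8 to 35.5 for T cells and 1.57 to 2.90 and 7.18 to 11.98 for B cells. Of 8 adipocyte markers 3 were called lower (median -2.00), with sums of 349 to 996 FPKM in CFA and 160 to 345 in CSA. Of 8 fibroblast markers 1 was called lower, and their sums were 3384 to 3686 FPKM in CFA and 5179 to 6135 in CSA. Col1a1 (means of 1439 FPKM in CFA and 2823 in CSA) and Col3a1 (961 and 1630) were the main part. The markers went both ways, from -3.28 to 1.44 on the log2 scale, with a median of 0.46. The part of these tissues in the members' values was not tested.

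Icam2, the constitutive endothelial ligand of the integrin LFA-1, had 18.5, 12.03 and 27.6 FPKM in CFA and 9.39, 8.52 and 2.19 FPKM in CSA. Every CSA mouse was below every CFA mouse, and CSA03 was the lowest. The log2 fold change of -1.69 (SE 0.66) missed the adjusted threshold in limma (adjusted p = 0.0613). The call depended on single mice: Icam2 was called lower without CFS69 (adjusted p = 0.0209) and without CSA01 (-2.05, adjusted p = 0.0455), and the value was -1.03 (adjusted p = 0.196) without CSA03. Over all genes, 25.1% had CSA values all below the CFA values and 23.4% all above, so a separation of the groups by itself was common.

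Selp had 10.2, 7.56 and 9.59 FPKM in CFA and 21.5, 17.3 and 12.5 in CSA. The groups did not overlap, with a ratio of means of 1.88 and a log2 fold change of 0.88 (SE 0.36, limma adjusted p = 0.0720). Without CSA03 the value was 1.08 (adjusted p = 0.0446), still under the fold limit. Platelets also carry Selp, and the platelet list gave 0 calls among the 5 of its 10 markers that were tested. The tested markers had a median of -1.02, with Gp9 at -2.75 (adjusted p = 0.101), Gp1ba at -1.26 (adjusted p = 0.0125, under the fold limit) and Pf4 at 0.12. The summed level overlapped between the groups (37.6 to 52.1 FPKM in CFA and 24.0 to 55.6 in CSA), with Pf4 the main part of it (means of 27.7 and 31.7 FPKM), and the defining marker Gp1bb was listed at 0 in all 12 libraries.

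Icam1 had 14.1, 14.0 and 13.2 FPKM in CFA and 20.7, 17.9 and 10.7 in CSA. The groups overlapped, since CSA03 was below the CFA mice and the other CSA mice above them. The log2 fold change was 0.20 with a 95% interval of -0.41 to 0.82 (limma adjusted p = 0.595). It was 0.48 without CSA03 (adjusted p = 0.134, and 0.00670 without both CSA03 and CFS69), under the fold limit, and 0.011 without CSA01.

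**Figure D2:**
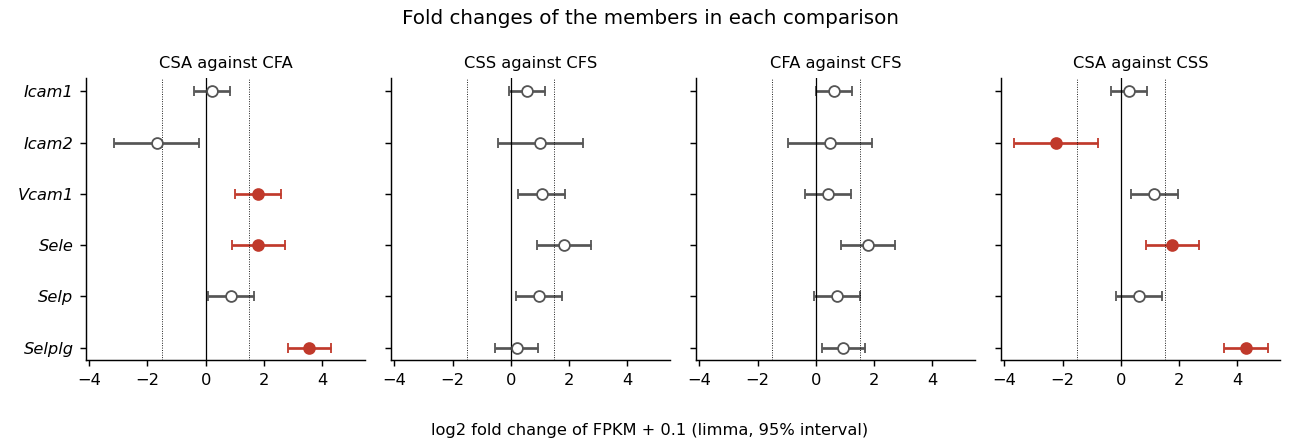
Log2 fold changes of FPKM + 0.1 for each member in the 4 comparisons (points) with limma's 95% intervals (bars). Filled points were called, and dotted lines mark the fold limit of 1.5. Selplg and Sele were called in both comparisons that involve CSA, and no member was called in CSS against CFS or in CFA against CFS.

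Endothelial markers were set beside the members. Of 16 endothelial markers, 4 were called lower in CSA than in CFA (Nos3 -2.37, Vwf -2.36, Tek -1.89 and Pecam1 -1.84) and 1 higher (Emcn 1.56), and their median was -0.40. The summed endothelial level was 419 to 725 FPKM in CFA and 266 to 389 in CSA. Icam1, Icam2, Vcam1, Sele and Selp were also taken relative to the mean log2 level of this list in the same library. Of these, Icam1, Icam2, Vcam1 and Selp are not made by endothelium alone. On that scale CSA exceeded CFA by 2.37 for Sele, 2.36 for Vcam1, 1.44 for Selp and 0.77 for Icam1, and was below it by a difference of -1.12 for Icam2, or -0.63 without CSA03, whose value of -2.23 lay below the -0.80 and -0.71 of the other CSA mice. The 3 CSA and the 3 CFA values did not overlap for any of these 5 genes. How many of all genes separate on this scale was not computed. In plain FPKM, 23.4% lay all higher and 25.1% all lower in CSA. The same list mean is subtracted from each gene. In plain FPKM the Icam1 groups overlapped (log2 fold change 0.20), so its separation here arises from subtracting the list. The exact permutation test (two-sided) gave its smallest possible p of 0.1 for each of the 5 genes, and 0.12 after adjustment over the 6 tests. This test therefore cannot pass the threshold with 3 mice per group. Relative to the pan-leukocyte list, Selplg differed by 0.36 between CSA and CFA, and the groups overlapped (exact permutation p = 0.3, adjusted 0.3). The part that cell number plays in any of these differences was not tested.

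**Figure D3:**
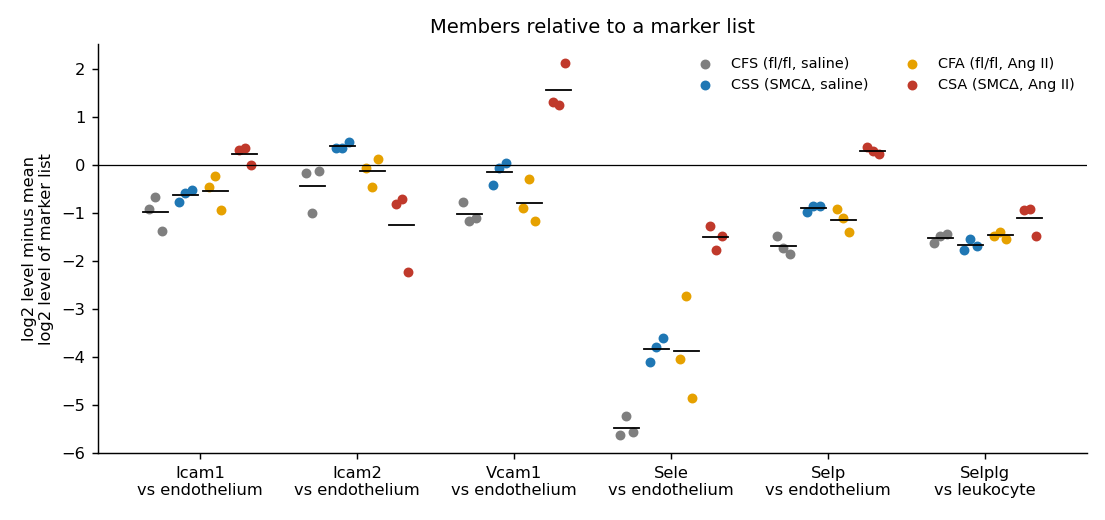
Log2 level of each member minus the mean log2 level of a marker list in the same library (points, 1 per mouse, with the group mean as a line). The list is endothelium for the first 5 genes and pan-leukocyte for Selplg. CSA lies above CFA for Icam1, Vcam1, Sele and Selp and below it for Icam2, and the Selplg groups overlap.

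Vcam1 and Icam2 changed places in FPKM. In each library, the ratio of Vcam1 to Icam2 was 0.502 to 0.881 in CFS, 0.577 to 0.751 in CSS and 0.409 to 1.12 in CFA. It was 3.97 to 21.6 in CSA, with the highest value in CSA03. The ratio exceeded 1 in all 3 CSA mice and in 1 of the other 9. The ratio of Sele to Selp was 0.0446 to 0.0623 in CFS, 0.106 to 0.139 in CSS, 0.0811 to 0.317 in CFA and 0.234 to 0.315 in CSA. FPKM are per length, so the size of such a ratio depends on the exon length given to each gene. The merged exons held 8870 bases in Vcam1 and 1904 in Icam2, and the transcript lengths in use were not tested. A change of a ratio between groups does not depend on these fixed lengths.

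**Figure D4:**
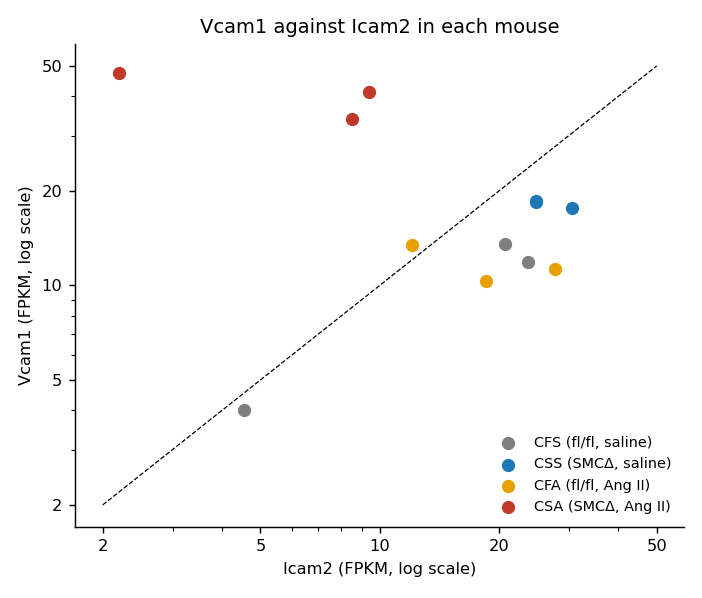
Vcam1 against Icam2 in each mouse, in FPKM on log axes, with a dashed line where the levels are equal. The 3 CSA mice lie above the line at 33.8 to 47.4 FPKM of Vcam1, and CFS69 lies low on both axes.

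By mean FPKM, the order in CFS was Icam2, Vcam1, Icam1, Selp, Selplg and Sele. The order of genes within a group also depends on the exon length given to each. The first 4 did not differ beyond the spread, each range overlapping the next, and Selplg (1.11 ± 0.0777 FPKM, SD, n = 3) and Sele (0.319 ± 0.153) each stood apart. In CSS the order was the same and each neighbour stood apart from the next, except that Selplg (1.31 ± 0.235) and Sele (1.31 ± 0.0426) overlapped. In CFA, Icam2 (19.4 ± 7.85), Icam1 (13.8 ± 0.495) and Vcam1 (11.7 ± 1.60) overlapped with their neighbours, Selp (9.11 ± 1.37) stood apart from both sides, and Selplg (2.48 ± 1.51) and Sele (1.41 ± 0.861) overlapped. In CSA, Vcam1 came first and stood apart from Selplg (27.9 ± 6.75). Selplg overlapped with Selp (17.1 ± 4.50), and Selp with Icam1 (16.4 ± 5.16). Icam1 stood apart from Icam2 (6.70 ± 3.93), which overlapped with Sele (4.86 ± 1.66). Icam2 was first by mean in the other 3 groups and the fifth of 6 in CSA.

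Under saline, no member was called between CCN2SMCΔ and CCN2fl/fl mice. Of all tested genes 0.0136% were called in CSS against CFS, and the Ccn2 levels of these groups overlapped, so the libraries do not show the deletion here. The CSS mice lay above all CFS mice for 5 of the 6 members (Icam1, Icam2, Vcam1, Sele and Selp), against 11.1% of all genes, and the 6 members had a median log2 fold change of 0.998, against 0.01 over all genes. Sele had 0.372, 0.147 and 0.438 FPKM in CFS and 1.28, 1.297 and 1.36 FPKM in CSS. The CSS values were close together and all the CFS values far below them, from 20, 8 and 22 fragments (the count of 8 has a 95% exact Poisson interval of 3.45 to 15.8, which covers counting error only). The log2 fold change of Sele was 1.83 (SE 0.41, limma adjusted p = 0.295), and 1.76 with an adjusted p of 0.0345 when libraries were weighted by their noise (limma's array weights). For the others it was 1.06 for Vcam1 (adjusted p = 0.614), 1.02 for Icam2 (0.950), 0.98 for Selp (0.655), 0.55 for Icam1 (0.842) and 0.21 for Selplg (1). In unadjusted terms 3 members had p under 0.05, as did 924 of all genes tested.

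These differences moved with CFS69. That library had the lowest value of its group for Icam1 (5.74 FPKM, against 12.3 and 9.89), Icam2 (4.55 against 20.7 and 23.6), Vcam1 (4.01 against 13.5 and 11.9), Selp (2.69 against 8.32 and 7.03) and Sele (0.147 against 0.372 and 0.438), and the lowest endothelial marker sum. For Selplg, which endothelium does not define, it had the highest value of the group (1.201 against 1.08 and 1.06). Without CFS69, the log2 fold changes between CSS and CFS were 1.48 for Sele, 0.52 for Vcam1, 0.49 for Selp, 0.27 for Icam2 and 0.24 for Icam1, and no member was called. Other tissue markers moved in the same comparison: all 8 adipocyte markers had lower fitted values in CSS (median -1.22, from -2.52 to -1.05, none called), and their summed level was 749 to 2970 FPKM in CFS, highest in CFS70, and 189 to 868 in CSS. Summed skeletal muscle markers were 152 FPKM in CFS68 and 244 in CSS55, against 2.73 to 3.93 in the other saline libraries. Pan-leukocyte sums were 47.7 to 55.2 FPKM in CFS and 56.4 to 71.4 in CSS, without overlap (median 0.33, none called). Fibroblast sums were 2574 to 3216 FPKM in CFS and 1906 to 2252 in CSS, also without overlap (median -0.41, none called). The part of these tissues and cells in the members' differences was not tested.

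In floxed mice, Ang II gave no called member, against 0.0273% of all tested genes in CFA against CFS. Sele (1.79, limma adjusted p = 0.149), Selplg (0.94, adjusted p = 0.402) and Icam1 (0.63, adjusted p = 0.521) were higher in every CFA mouse than in every CFS mouse, against 9.44% of all genes. For Sele the 0.372, 0.147 and 0.438 FPKM of CFS stood below 1.07, 2.39 and 0.778 in CFA, of which CFA72 was the highest. CFA72 also had the highest Selplg (4.21 FPKM) and leukocyte marker sum (143 FPKM) outside CSA. The pan-leukocyte sums were 63.3 to 143 FPKM in CFA and 47.7 to 55.2 in CFS, without overlap, and the markers' median difference was 0.94 on the log2 scale, with 0 of 10 called. Those of macrophage markers were 310 to 618 and 241 to 283 FPKM. Fibroblast sums were 3384 to 3686 FPKM in CFA and 2574 to 3216 in CFS, also without overlap, with 0 of 8 markers called. Col1a1 (means of 1439 FPKM in CFA and 851 in CFS) and Col3a1 (961 and 616) were the main part. The markers went both ways, from -0.78 to 0.77 on the log2 scale, with a median of 0.21. The part of leukocytes and fibroblasts in the members' values was not tested. Selp (0.73), Icam2 (0.48) and Vcam1 (0.42) overlapped between the groups, and the signs of Icam2 (-0.27) and Vcam1 (-0.12) turned without CFS69. Without CFS69, Icam1 was 0.32 and Selp 0.24, and without CFA72, Selplg was 0.50. Array weights called Sele here too (1.60, adjusted p = 0.0338), and 3 members and 1383 genes in all had an unadjusted p under 0.05.

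In CCN2SMCΔ mice, 3 of the 6 members were called between Ang II and saline. Between CSA and CSS, 2 members were called higher, against 10.9% of all tested genes, and 1 lower, against 9.36%. Selplg had 1.36, 1.52 and 1.05 FPKM in CSS and lay 21.3-fold higher in CSA by means (log2 fold change 4.29, SE 0.34, limma adjusted p = 3.22e-06). Sele rose 3.71-fold, from 1.28, 1.297 and 1.36 FPKM (1.77, SE 0.41, adjusted p = 0.00486), and its value of 1.31 with a pseudocount of 1 was under the fold limit. Icam2 fell, from 30.5, 24.8 and 24.7 FPKM in CSS to 9.39, 8.52 and 2.19 in CSA, 3.98-fold by means. Its log2 fold change was -2.22 (SE 0.66, adjusted p = 0.0169), a call that was lost without CSS54 (adjusted p = 0.0524) and without CSA03 (-1.56, adjusted p = 0.0569).

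Vcam1 had 17.6, 18.6 and 18.4 FPKM in CSS, below every CSA mouse. Its log2 fold change of 1.15 (limma adjusted p = 0.0230) passed the adjusted threshold and not the fold limit. Selp had 12.01, 10.6 and 9.79 FPKM in CSS and was higher in every CSA mouse (0.63, adjusted p = 0.176), while Icam1 had 13.9, 12.97 and 12.3 FPKM and overlapped with CSA (0.28, adjusted p = 0.439). Of all genes, 26.3% had CSA values all above CSS and 29.1% all below. Marker lists moved in this comparison too: 10 of 10 pan-leukocyte markers were called higher (median 3.83), 8 of 10 macrophage markers higher, 8 of 8 smooth muscle markers lower, and 5 endothelial markers lower and 2 higher of 16. Of 8 fibroblast markers 3 were called higher and 1 lower, and 3 of 8 adipocyte markers (median -1.40) and 2 of 4 tested skeletal muscle markers (median -3.01) were called lower. Skeletal muscle sums were 244 FPKM in CSS55, 2.73 in CSS54 and 3.58 in CSS56, against 2.58 to 3.99 in CSA. The part of these lists in the members' values was not tested. CSA enters this comparison and that with CFA, so the 2 sets of values are not independent.

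Whether the effect of genotype differed between treatments was tested as an interaction, (CSA minus CFA) minus (CSS minus CFS). Selplg was the 1 member called (3.35 on the log2 scale, limma adjusted p = 0.000582), against 7.89% of all tested genes called higher and 7.31% lower. Its genotype effect was 0.21 under saline and 3.56 under Ang II. For Icam2 the effect was 1.02 under saline and -1.69 under Ang II, a difference of -2.70 (SE 0.93) that missed the threshold (adjusted p = 0.0531). That of Icam2 was called with a pseudocount of 1 (adjusted p = 0.0450), a mean FPKM of at least 5 (0.0476) or array weights (0.0287), and without CFS70 (0.0410) or CSA01 (0.0413). It was not called in the other 14 alternatives, where the adjusted p reached 0.120. It was -1.95 (adjusted p = 0.0852) without CFS69, -2.04 (0.0840) without CSA03 and -1.29 (0.0357), under the fold limit, without both. Of 16 endothelial markers, 3 were called lower in the interaction (Nos3 -3.27, Vwf -2.85 and Pecam1 -2.40) and 3 higher, with a median of -0.93. Their part in the Icam2 value was not tested. Vcam1 had an interaction of 0.73 (adjusted p = 0.338), Icam1 -0.35 (0.560), Selp -0.10 (0.908) and Sele -0.02 (0.985). The Vcam1 interaction depended on CFS mice: it was 1.27 (adjusted p = 0.00351) without CFS69, under the fold limit, and 0.41 (0.606) without CFS68. The interval of the Sele interaction ran from -1.32 to 1.28.

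The molecules that the members bind or depend on were followed through 4 lists. Of 27 integrins and other adhesion and junction molecules, 22 were tested, and 7 were called higher and 2 lower in CSA than in CFA (8.95% and 8.27% over all tested genes), with a median log2 fold change of 0.72, against -0.04 over all genes. Of the 22, 3 passed the filter only through CSA, Itgax and Itgam among them, which favours a higher value there. Of the other 19, 4 were called higher and 2 lower. Those 4 were the integrin chains Itgb2 (3.20, limma adjusted p = 1.90e-05), Itgb7 (2.87) and Itgal (2.81), and the hyaluronan receptor Cd44 (2.09). The integrin chains Itgax (3.66) and Itgam (3.61) are outside them, since they passed only through CSA. Itgam or Itgal paired with Itgb2 forms Mac-1 or LFA-1, the receptors of ICAMs. Of these chains, Itgal and Itgb2 were called higher, and the call of Itgam is not counted. Itga4, the α chain of the VCAM-1 receptor, had 1.43 (adjusted p = 0.000460), under the fold limit, and its partner Itgb1 had -0.93. The endothelial and mural junction molecules Mcam (-2.61) and Pecam1 (-1.84) were called lower.

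Of 16 genes for selectin ligand scaffolds and glycosylation, 14 were tested and 2 called higher, against 8.95% of all tested genes, and nothing particular to the list is read from so few. These were Spn (3.16, limma adjusted p = 5.73e-06), the leukocyte sialomucin CD43, and Fut4 (2.51, 0.000223), a fucosyltransferase that builds selectin ligands, which passed the filter only through CSA (at most 0.555 FPKM in CFA and at least 2.64 in CSA). The sialyltransferase St3gal3 had -1.03 (adjusted p = 0.00864), under the fold limit, and the median of the list was 0.37. Of 13 cytoplasmic linkers and sheddases, all tested, 3 were called higher and 2 lower, against 8.95% and 8.27% of all tested genes. Adam8 (4.18, adjusted p = 0.000200), a protease of leukocytes, Fermt3 (2.33, 0.000133), the integrin activator kindlin-3, and Ezr (1.61) were higher, and Vcl (-2.07, 1.31e-06), which encodes vinculin, and Rasgrp2 (-1.61) were lower. Adam8 passed the filter only through CSA (0.584 to 3.90 FPKM in CFA and 14.1 to 35.9 in CSA), which leaves 2 higher and 2 lower of 12.

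Of 22 genes of NF-κB and the cytokines known to induce these adhesion molecules, 19 were tested, 7 called higher and 0 lower (8.95% and 8.27% over all tested genes), with a median of 1.26. Il1b (5.60, limma adjusted p = 0.000250) and Tnf (3.44, 6.42e-05), the classical inducers of E-selectin and VCAM-1, and Il4ra (2.64, 5.38e-05), a receptor for IL-4 and IL-13, had the largest changes. Tnf passed the filter only through CSA (0.288 to 0.460 FPKM in CFA and 4.03 to 5.89 in CSA), which leaves 6 higher of 18. Tnfrsf1b (2.33), Rel (1.97), Nfkbiz (1.85) and Il1r1 (1.64) were the others. In CSS against CFS and in CFA against CFS, 0 genes of these 4 lists were called. Itgb2 is also 1 of the pan-leukocyte markers, and how far the lists follow cell number was not tested.

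**Figure D5:**
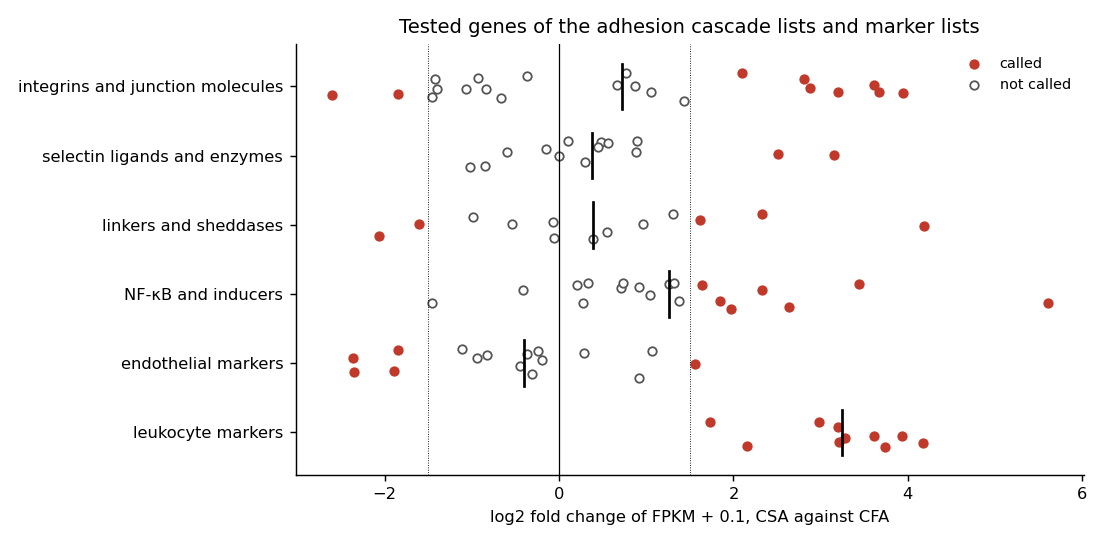
Log2 fold changes between CSA and CFA of the tested genes in 4 lists of adhesion partners and inducers and in the endothelial and pan-leukocyte marker lists (points, filled where called), with each list's median (bar). Dotted lines mark the fold limit of 1.5. All 10 leukocyte markers lie beyond the upper limit, and the endothelial markers lie on both sides of 0.

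The genes whose pattern was most like each member over the 12 libraries were sought among 13469 tested genes by the Pearson correlation of log2(FPKM + 0.1), as a description in which the groups, depth and leukocyte content are shared by all points. For Selplg these were Csf1r (r = 0.997), Fgd3 (0.996) and Pik3r5 (0.996). For Icam2 they were Pkn3 (0.995), Kif26a (0.985) and Megf6 (0.981). For Vcam1 they were Crybg1 (0.975), Gbp8 (0.958) and Hhex (0.957), and for Sele Ltbp2 (0.961), Ttc9 (0.955) and Fxyd5 (0.951). Icam1 and Selp had the same closest gene, Orai1 (0.956 and 0.945), followed by Pdgfb (0.949) and Lyl1 (0.945) for Icam1 and by Cda (0.925) and Gm5424 (0.919) for Selp.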

How the data were processed

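RNA was taken from abdominal aortas of 12 male mice (4 groups of 3), and groups and mouse numbers were read from the sample labels. Libraries were made from poly(A) RNA and sequenced in pairs on a NovaSeq. FPKM per gene were deposited by the authors for every mouse, without pooling, and 0 columns were unused. The submitters' processing notes name HISAT2 2.0.5, StringTie 1.3.3b, featureCounts 1.5.0-p3 and mm10. The annotation release and the strand setting are not given in the sources used here. With GENCODE M21 exon lengths, 98.1% to 98.5% of values under 100 fragments came out whole within 0.05 fragments, and their sum served as depth. The divisor behind the FPKM was 0.928 to 1.11 times that sum, so the values carry a scaling between libraries.

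Log2(FPKM + 0.1) was fitted in R 4.3.3 with limma 3.58.1 (eBayes with trend and robust settings) over all 12 libraries with 1 coefficient per group. Benjamini-Hochberg adjustment ran over 14676 genes. The pseudocount understates fold changes of low genes. The study's methods state DEG-Seq at p under 0.05 and a log2 fold change beyond 1.5 in either direction. The caption of its volcano plot gives an adjusted p with the same limits, and adjusted p was used here. The test was first tested on simulated data. Plots used matplotlib 3.10.9, and other steps used numpy 2.4.6 and pandas 2.3.3 in Python 3.11.15.

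The text names the 6 members, Ccn2, the 3 most changed genes of each adhesion list and the 3 genes most like each member. An item that this rule selects is not reported here. Further called genes of these lists and of the endothelial list were named after their values were seen. So were Itga4, Itgb1, Msr1, Col1a1, Col3a1 and 3 platelet markers. The members and lists were chosen with earlier results of these data known. Alternatives were another pseudocount, 2 other filters, scaling to equal FPKM sums, plain eBayes, array weights, a fit of only the groups compared, no fold limit and leaving out each mouse. Leaving out both CFS69 and CSA03 was added after seeing the data.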

Additional observations from a re-analysis of the deposited data

Results flagged for a closer look

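Every CSS mouse had more Icam2 than every CFS mouse, as was so for 11.1% of all genes. Every CSA mouse had less than every CFA mouse, as was so for 25.1% of all genes. The fitted genotype effects had opposite signs, 1.02 under saline and -1.69 under Ang II. Neither effect was called (limma adjusted p = 0.950 and 0.0613), so a direction under saline is not established. The difference of the effects was -2.70 on the log2 scale, with a limma adjusted p of 0.0531 that missed the threshold. The CSS side of this contrast was 0.27 without CFS69, and the Ang II side was -1.03 without CSA03. The 16 endothelial markers had a median of 0.41 under saline (0 called) and -0.40 under Ang II (4 called lower and 1 higher). Their part in the Icam2 values was not tested. For Selplg, the genotype effect was larger under Ang II than under saline by 3.35 on the log2 scale (limma adjusted p = 0.000582), and the summed pan-leukocyte markers were 47.7 to 143 FPKM outside CSA and 733 to 795 in CSA. No formal outlier test was run on groups of 3 mice, and the libraries that stood apart are named with the data.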

How the results depend on the processing

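Of 734 alternative values over 41 results, 695 were labelled the same as the main value. A fold change had to keep its direction and its side of the threshold, and a count of members had to stay within 1.5 times. A value relative to a marker list had to keep its sign only, whatever its size. That of Icam2, for example, ran from -1.39 to -0.63. The number of members called was 3 in CSA against CFA (2 to 4 over the mice left out in turn) and 3 in CSA against CSS (2 to 3). In CSS against CFS and in CFA against CFS, 1 member (Sele) was called with array weights and 0 in every fit that left out a mouse. The interaction called 2 members with a pseudocount of 1, a mean FPKM of at least 5 and array weights, and 1 to 2 over the mice left out.

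The sign of small interactions turned. Sele went from -0.02 to 0.49 with a pseudocount of 1, 0.016 with equal FPKM sums, 0.20 with array weights and 0.48 without both CFS69 and CSA03, with a range of -0.34 to 0.41 over single mice left out. Selp went from -0.10 to 0.11 with array weights and 0.60 without both libraries, with a range of -0.41 to 0.39, and Icam1 to 0.24 without both. In CFA against CFS, Icam2 was -0.27 and Vcam1 -0.12 without CFS69, alone or with CSA03, and their ranges over mice left out reached 0.91 and 0.74. The cause was not tested. The mean filter of 5 left Sele out.

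No paired analysis was possible because the groups share no mouse numbers. Depth limits Sele most, at 8 to 22 fragments in CFS, and 3 mice per group limit every comparison.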
